A study of Mus musculus with 12 samples.

Results

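Neuronal cytoskeleton and synapse genes were followed over 10 days in mouse embryonic fibroblasts exposed to chemical combinations. The set held 10 named genes, Nefl, Nefm, Gap43, Nptx1, Map1b, Elavl4, Syn1, Chrna1, Lrrn1 and Bdnf, of 12393 genes measured on the array. They were chosen by name for their structural and synaptic roles, with earlier results of these data known, and were read for a peak at day 5. All 10 passed the filter on dim genes, Syn1 only through 6TCF day 5, the group in which it was highest. They were represented by 16 probe sets, where a probe set is the group of short oligonucleotides on the chip that reports a transcript.

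Fibroblasts grown from mouse embryos were placed in a medium with serum and basic fibroblast growth factor and exposed to the combination labelled 6TCF or the one labelled SGCF, and RNA was hybridised to arrays labelled day 0, day 5 and day 10. Each of the 6 groups had 2 arrays, 12 in all. Every group shared the same culture medium, and the day 0 arrays of both arms carried their combination's name, with no statement of whether the cells had yet met it. No strain, genotype or embryonic age was given, no array was labelled as an untreated or vehicle culture, and the chemicals within each combination were not named. The labels did not say whether the replicates came from separate embryos or dishes, so the p-values measure the spread between arrays, which may be technical. Culture time and treatment cannot be told apart in this design.

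Neurofilaments are the intermediate filaments that set the calibre of axons, and microtubule-associated proteins stabilise the microtubules beside them. Growth cones at the tips of growing axons are rich in the membrane phosphoprotein Gap43. At synapses, synapsins tether transmitter vesicles, neuronal pentraxins gather glutamate receptors, and nicotinic acetylcholine receptors answer released acetylcholine. Neurons carry most of these products at high levels, whereas fibroblasts carry few of them, although Map1b and Bdnf are also made outside neurons.

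Promoters are shown so that some members that moved together at day 5 can be set beside some that did not. The RefSeq table on build GRCm38.p6 gave windows for 6 of the 10 genes, 15 windows in all, and none for Nefl, Nefm, Gap43 and Nptx1. A single window each of Lrrn1, Chrna1, Syn1 and Bdnf is printed here, and those of Map1b and Elavl4 are not. A window is the 250 bases before the annotated start, 5′ to 3′ on the gene's strand. Capitals mark a searched motif. Lrrn1 and Chrna1 rose in both arms, Syn1 was called higher at day 5 in 6TCF and not called in SGCF, and Bdnf moved in opposite directions in the arms. The Lrrn1 window lay at chr6:107529476-107529725 on the plus strand, the Chrna1 window at chr2:73580339-73580588 on the minus strand, the Syn1 window at chrX:20920919-20921168 on the minus strand, and the window of the Bdnf start numbered 3 of 7 in the table at chr2:109692186-109692435 on the plus strand.
Lrrn1: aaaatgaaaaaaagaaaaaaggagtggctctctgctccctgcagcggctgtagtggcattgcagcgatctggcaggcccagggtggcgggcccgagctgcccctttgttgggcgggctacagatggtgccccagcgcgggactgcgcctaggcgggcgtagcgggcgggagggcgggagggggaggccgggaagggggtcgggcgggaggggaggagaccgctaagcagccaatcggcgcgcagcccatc
Chrna1: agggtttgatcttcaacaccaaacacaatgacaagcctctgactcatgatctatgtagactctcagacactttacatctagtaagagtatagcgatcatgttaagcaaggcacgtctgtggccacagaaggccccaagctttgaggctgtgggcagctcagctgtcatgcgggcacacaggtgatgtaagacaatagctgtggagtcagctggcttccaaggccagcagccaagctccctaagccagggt
Syn1: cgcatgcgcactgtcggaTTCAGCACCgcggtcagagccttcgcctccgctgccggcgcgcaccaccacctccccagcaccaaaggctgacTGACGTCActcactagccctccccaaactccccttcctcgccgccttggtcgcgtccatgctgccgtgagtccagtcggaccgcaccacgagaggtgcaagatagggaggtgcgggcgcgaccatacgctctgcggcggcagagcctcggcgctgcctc
Bdnf: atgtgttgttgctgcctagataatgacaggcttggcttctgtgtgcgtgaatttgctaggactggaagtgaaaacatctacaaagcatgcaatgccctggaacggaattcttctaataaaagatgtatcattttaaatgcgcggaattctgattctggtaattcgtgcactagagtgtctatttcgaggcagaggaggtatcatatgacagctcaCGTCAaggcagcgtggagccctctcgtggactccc

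The motifs searched, on both strands, were TGACGTCA (the full cyclic AMP response element), TGACG (its shorter form, contained in the full one), TTCAGCACC (part of the element bound by the neuronal repressor Rest) and GGACAG (the other part of it). The Syn1 window held TGACGTCA with its first base at -159 from the start and TTCAGCACC at -232. TGACGTCA was present in 1.55% and TTCAGCACC in 0.301% of 32851 windows of the same length, and each was present in 1 of the 15 member windows. The shorter form, present in 17.8% of all windows, was in 5 of 15 member windows, which belong to 3 of 6 genes, Elavl4, Syn1 and Bdnf. The Elavl4 windows numbered 2 and 3 overlap and hold the same site, and the Syn1 matches lie within its full element. The printed Bdnf window was the only Bdnf window with this motif. It held the motif on the reverse strand, so that its complement is in capitals, at -35. The last motif, present in 18.7% of all windows, was in 1 of 15. The printed Lrrn1 and Chrna1 windows held none of the 4 strings, which says only that those letters were not there. Nefl and Nefm are neighbouring genes on chromosome 14.

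The deposited intensities differed in brightness between the arms, with array medians of 102.4 to 142 in 6TCF and 60.86 to 86.23 in SGCF, and were brought to a common distribution before any comparison. Arm and processing batch cannot be told apart. Replicates correlated at 0.985 to 0.997 across genes, which are not independent. The difference between 3' and 5' actin probe sets, a sign of RNA quality, rose in 6TCF from 0.342 ± 0.064 (SD, n = 2) at day 0 to 0.819 ± 0.082 at day 5 and 1.037 ± 0.004 at day 10 on the log2 scale. In SGCF it was 0.33 ± 0.076, 0.45 ± 0.043 and 0.464 ± 0.008. The same difference for Gapdh ran otherwise. It was 0.388 ± 0.069, 0.496 ± 0.132 and 0.49 ± 0.001 in 6TCF. In SGCF the Gapdh values were -0.018 ± 0.046, 0.101 ± 0.095 and 0.111 ± 0.018, so by Gapdh the arms already differed at day 0. The part of either difference in the results below was not tested. The files gave no detection call per probe set, so the 25th percentile of all values, a normalised intensity of 22.1, serves as the reference for a dim value.

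Day 5 brought large rises in most of the set. The set was chosen with earlier results of these data known. Counts of members beside shares of all genes therefore describe it and are not an independent test. In 6TCF, 7 of 10 genes were called higher at day 5 than at day 0 and 2 lower, where 27.7% of the 10674 genes tested were called, 15.1% higher and 12.6% lower. The 7 include Syn1, which passed the filter only through the day 5 group, so that 6 of the other 9 were higher. In SGCF, 8 were called higher and 0 lower, against 25.5% of all genes called, 12.8% higher and 12.7% lower. At an unadjusted p under 0.05 in limma 1 gene, Map1b, was lower in SGCF, where 17.9% of all genes were. A call means an adjusted p under 0.05 in limma, with Benjamini-Hochberg adjustment over all genes tested. The median log2 change of the 10 genes was 2.46 in 6TCF and 3.57 in SGCF, and the median over all genes was 0 and 0.022. Nefl, Nefm, Gap43, Nptx1, Chrna1 and Lrrn1, 6 of the 10, were called higher in both arms, as were 7.29% of all genes. The sizes of these rises moved with the offset of 16 added before the logarithm, while the calls held: with offsets of 64 and 1 the SGCF rise was 3.73 and 6.11 for Nefl, 4.08 and 5.81 for Nptx1 and 3.22 and 4.57 for Lrrn1. The 6TCF rise of Nefl was 2.87 and 4.53 with the same offsets. As these are bulk cultures, more cells of a type and more RNA per cell cannot be told apart.

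**Figure D1:**
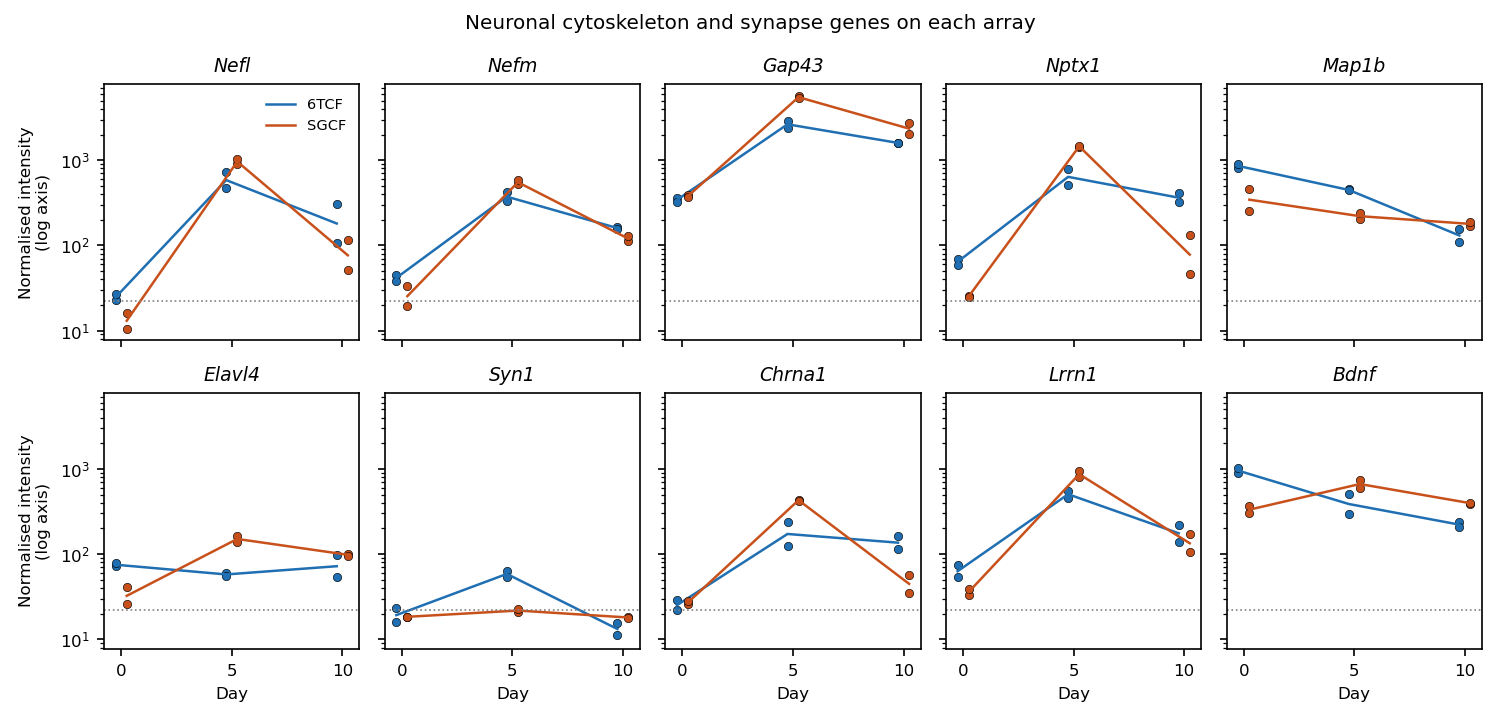
Normalised intensity (log axis) of the 10 genes against culture day; points are single arrays, lines join the means of the 2 log2 values of each group, and the dotted line is the 25th percentile of all values, 22.1. Nefl, Nefm, Gap43, Nptx1, Chrna1 and Lrrn1 stand highest at day 5 in both arms, while Map1b declines and Syn1 rises above the line at day 5 in 6TCF.

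Of the cytoskeleton genes, Nefl encodes the light neurofilament subunit, on which the other subunits assemble. In 6TCF its normalised intensity was 22.6 and 26.8 at day 0, 732 and 466 at day 5, and 107 and 305 at day 10. In SGCF it was 16.2 and 10.5, then 910 and 1020, then 115 and 50.9. The day 0 arrays were near or below the dim reference, every day 5 array exceeded every day 10 array of its arm, and the day 10 replicates of both arms lay far apart. Nefl was higher at day 5 by 3.88 ± 0.39 (SE) on the log2 scale in 6TCF (adjusted p = 1.52e-05) and by 5.07 ± 0.39 in SGCF (adjusted p = 1.67e-06). Both SGCF arrays of day 0 were below the dim reference, and the size of this rise moved with the offset, as given above. By day 10 it fell by 1.6 ± 0.39 in 6TCF (adjusted p = 0.0196) and by 3.39 ± 0.39 in SGCF (adjusted p = 9.19e-05). The 6TCF call was lost without the day 5 replicate 1 array (-1.28, adjusted p = 0.167) and without the day 10 replicate 1 array (-0.9, adjusted p = 0.179), that is without the brighter day 5 array or the dimmer day 10 array, and with an offset of 1 (-1.69, adjusted p = 0.0537). At day 10 Nefl remained above day 0 by 2.29 in 6TCF (adjusted p = 0.00058) and by 1.68 in SGCF (adjusted p = 0.00525). The latter call was lost without SGCF day 10 replicate 1 (1.19, adjusted p = 0.0589).

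Nefm, the medium neurofilament subunit, followed the same course with closer replicates. Its intensity in 6TCF was 44.5 and 38.7 at day 0, 421 and 331 at day 5, and 163 and 156 at day 10. The SGCF arrays gave 33.3 and 19.3, then 523 and 581, then 112 and 128. None of the 3 days overlapped in either arm, and day 10 lay between day 0 and day 5. The rise to day 5 was 2.76 ± 0.17 in 6TCF (adjusted p = 2.38e-07) and 3.76 ± 0.17 in SGCF (adjusted p = 2.54e-08). The fall to day 10 was -1.15 ± 0.17 (adjusted p = 0.00167) and -2.07 ± 0.17 (adjusted p = 7.09e-06). At day 10 Nefm stood 1.61 and 1.7 above day 0 on the log2 scale in 6TCF and SGCF, and these calls, like those of both falls, were kept without any 1 array.

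Map1b, a microtubule-associated protein of growing axons, did not share this rise. Its 6TCF intensity was 817 and 897 at day 0, 453 and 442 at day 5, and 111 and 154 at day 10, a stepwise decline with no overlap between days. In SGCF the values were 462 and 256, then 202 and 240, then 168 and 190, with the day 0 replicates far apart. In 6TCF Map1b changed by -0.91 ± 0.22 to day 5 (adjusted p = 0.00965) and by -1.66 ± 0.22 from there to day 10 (adjusted p = 0.00111). The first call was lost without 6TCF day 0 replicate 2 (-0.85) or day 5 replicate 2 (-0.9). In SGCF the day 5 change of -0.61 was not called (adjusted p = 0.067), whereas the day 10 change from day 0, -0.89, was (adjusted p = 0.00811). Without SGCF day 0 replicate 1 the latter was -0.48, and without SGCF day 10 replicate 1 it was -0.81, neither of them called. Both other Map1b probe sets were dim: one ranged from 14.2 to 34.4 and the other from 14.3 to 88.4, and of their changes within an arm the 6TCF change from day 0 to day 10 of the brighter one (-1.3) was called.

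Gap43, the growth cone phosphoprotein, was well above the dim reference on every array. Its intensity was 361 and 323 at day 0 in 6TCF, 2900 and 2400 at day 5, and 1600 and 1590 at day 10. The SGCF arrays read 392 and 367, then 5650 and 5340, then 2700 and 2040. In each arm the 3 days did not overlap, and both SGCF arrays of day 5 were brighter than both 6TCF arrays. Gap43 rose by 2.89 ± 0.15 in 6TCF (adjusted p = 6.63e-08) and by 3.8 ± 0.15 in SGCF (adjusted p = 9.27e-09). From day 5 to day 10 it changed by -0.72 ± 0.15 (adjusted p = 0.00923) and -1.22 ± 0.15 (adjusted p = 0.000131). The 6TCF fall was no longer called without day 5 replicate 1 (-0.59), day 10 replicate 1 (-0.73) or day 10 replicate 2 (-0.72), nor without normalization between arrays (-0.43). At day 10 the gene was still 2.17 above day 0 in 6TCF (adjusted p = 3.83e-07) and 2.58 above it in SGCF (adjusted p = 1.24e-07).

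Among the synaptic genes, Nptx1 encodes neuronal pentraxin 1, a secreted protein that clusters AMPA-type glutamate receptors. The 6TCF arrays gave 69.5 and 59.2 at day 0, 792 and 513 at day 5, and 319 and 413 at day 10. Those of SGCF gave 25.7 and 24.6, then 1430 and 1480, then 133 and 45.7. The SGCF arrays thus showed a tight day 5 maximum and day 10 replicates that differed widely. Nptx1 rose by 3.03 ± 0.32 in 6TCF (adjusted p = 2.14e-05) and by 5.16 ± 0.32 in SGCF (adjusted p = 2.48e-07). It fell by 3.93 ± 0.32 to day 10 in SGCF (adjusted p = 7.09e-06). The 6TCF change over the same days, -0.79 ± 0.32, was not called (adjusted p = 0.113), but was called with only the arrays of that arm in the fit (adjusted p = 0.0285), with an offset of 64 (adjusted p = 0.0437) and without either SGCF array of day 10 (adjusted p = 0.0215). At day 10 Nptx1 was above day 0 by 2.24 in 6TCF (adjusted p = 0.000155) and by 1.22 in SGCF (adjusted p = 0.00991), the latter call lost without SGCF day 10 replicate 1 (0.58, adjusted p = 0.0854). A dimmer second Nptx1 probe set moved the same way, by 1.97 in 6TCF and 3.48 in SGCF at day 5, and its day 10 level in SGCF (0.36 above day 0) was not called.

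Syn1, synapsin I of the synaptic vesicle surface, was dim and behaved differently in the arms. In 6TCF it read 15.9 and 23.2 at day 0, 63.1 and 54.2 at day 5, and 11.3 and 15.4 at day 10. In SGCF all 6 arrays lay between 17.6 and 22.8. Both 6TCF arrays of day 5 were above the dim reference, while the means of the other 5 groups were below it. Because Syn1 entered the test only through the group in which it was high, the filter is not independent of its rise, fall and peak. With no filter on dim genes the 6TCF rise was 1.07 (adjusted p = 9.15e-05) and the change to day 10 was -1.35 (adjusted p = 0.000244). With an offset of 64 the rise was 0.56, and with an offset of 1 it was 1.56. The SGCF change at day 5, 0.14 ± 0.13, was not called (adjusted p = 0.505). A log2 change with an offset understates the change of a dim gene such as this.

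Chrna1 encodes the alpha subunit of the muscle-type nicotinic acetylcholine receptor, so it is a gene of the neuromuscular junction rather than of neuronal synapses. Its intensity in 6TCF was 28.7 and 22 at day 0, 241 and 123 at day 5, and 115 and 161 at day 10. In SGCF it was 25.7 and 28.5, then 436 and 422, then 57.5 and 34.8. Days 5 and 10 overlapped in 6TCF and were far apart in SGCF. Chrna1 rose by 2.2 ± 0.26 in 6TCF (adjusted p = 4.9e-05) and by 3.37 ± 0.26 in SGCF (adjusted p = 1.49e-06). It then changed by -0.31 ± 0.26 in 6TCF, which was not called (adjusted p = 0.429), and by -2.86 ± 0.26 in SGCF (adjusted p = 1.56e-05). At day 10 it was 1.88 above day 0 in 6TCF (adjusted p = 0.000111), and between 1.67 and 2.1 when any 1 array was left out. The SGCF level at day 10, 0.5 above day 0, was not called (adjusted p = 0.148).

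The 12 skeletal muscle markers were summed beside Chrna1. Their summed intensity was 1680 to 1801 at day 0, 630.7 to 753.8 at day 5 and 837.9 to 2411 at day 10 in 6TCF, with the highest value on replicate 2 of day 10. The sum of day 0 was mostly Acta1, skeletal muscle actin, at 1170 and 1250 in 6TCF and 1050 and 751 in SGCF, which fell to 129 and 158 and to 368 and 177 at day 5. In SGCF the sum was 1277 to 1549, 840.2 to 1356 and 737.5 to 932.2. Of the 11 markers tested, Acta1 was called lower at day 5 and 0 higher in 6TCF (median change 0.18), and Acta1 was lower and Ckm higher in SGCF (median 0.31). At day 10 against day 0, 5 were called higher and 2 lower in 6TCF (median 0.83), beside 23.2% and 20% of all genes. In SGCF 1 was higher and 2 lower (median 0.08), beside 20.5% and 18.3%. Tnnt3 passed the filter only through 6TCF day 10. Mylpf, a myosin light chain, read 44.7 and 70.2 at day 0 and 292 and 97.6 at day 5 in SGCF, which was not called. On replicates 1 and 2 of 6TCF day 10 Mylpf read 93.7 and 630, and Tnnc2, a troponin, 77.3 and 436. At day 5 Myf5 and Tnnt3 were below the dim reference in both arms, and Myog and Actn2 also in 6TCF. The list's part in the Chrna1 values was not tested. Of the other muscle-type subunits, Chrnb1 rose by 0.75 ± 0.12 in 6TCF (adjusted p = 0.000633) and fell by 0.68 ± 0.12 in SGCF (adjusted p = 0.00149) at day 5. Chrnd rose by 0.59 ± 0.11 in SGCF (adjusted p = 0.00196), from 46.1 and 41.6 to 78 and 70.6, and returned to 48.5 and 50.9 at day 10.

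Lrrn1, a transmembrane protein with leucine-rich repeats, had 6TCF intensities of 73.5 and 53.8 at day 0, 557 and 456 at day 5, and 140 and 220 at day 10. SGCF gave 33.3 and 38.6, then 804 and 935, then 171 and 105. In both arms day 5 was highest, day 10 intermediate and day 0 lowest, with no overlap. It rose by 2.72 ± 0.23 in 6TCF (adjusted p = 3.98e-06) and by 4.09 ± 0.23 in SGCF (adjusted p = 1.34e-07). To day 10 it changed by -1.44 ± 0.23 (adjusted p = 0.00271) and -2.55 ± 0.23 (adjusted p = 1.72e-05), remaining 1.28 (adjusted p = 0.000877) and 1.54 (adjusted p = 0.000267) above day 0. These Lrrn1 calls within each arm held without any 1 array.

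Elavl4, the RNA-binding protein HuD that stabilises neuronal messages, including that of Gap43, changed in SGCF. Its 6TCF arrays gave 72.1 and 78 at day 0, 59.9 and 55.5 at day 5, and 53.8 and 96.4 at day 10, with day 10 spanning the other days. Its SGCF arrays gave 25.7 and 40.7, then 164 and 138, then 100 and 96.2, with no overlap. The 6TCF change at day 5, -0.31 ± 0.2, was not called (adjusted p = 0.314). Elavl4 rose by 1.78 ± 0.2 in SGCF (adjusted p = 4.74e-05) and was still 1.23 ± 0.2 above day 0 at day 10 (adjusted p = 0.000529), while the step between days 5 and 10, -0.55 ± 0.2, was not called (adjusted p = 0.0793). Both dimmer Elavl4 probe sets were also higher at day 5 in SGCF, by 1.6 (adjusted p = 0.00015) and 1.09 (adjusted p = 0.00255), and changed by -0.01 and -0.03 in 6TCF, which was not called. One of them was called lower at day 10 than day 5 in SGCF (-0.79, adjusted p = 0.0202). At day 10 that probe set was 0.81 above day 0 in SGCF (adjusted p = 0.0103). The other was 0.55 above it, which was not called (adjusted p = 0.0617).

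Bdnf, the secreted neurotrophin that signals through the receptor Ntrk2, went opposite ways in the arms. The 6TCF arrays declined from 891 and 1020 at day 0 to 501 and 299 at day 5 and 235 and 209 at day 10. The SGCF arrays went from 365 and 302 to 601 and 734, and back to 391 and 400. No 2 days overlapped in either arm. Bdnf fell by 1.26 ± 0.2 in 6TCF (adjusted p = 0.000568) and rose by 0.97 ± 0.2 in SGCF (adjusted p = 0.00402). Its second probe set gave -0.95 (adjusted p = 0.000808) and 0.61 (adjusted p = 0.015) for the same changes. From day 5 to day 10 the change was -0.76 ± 0.2 in 6TCF (adjusted p = 0.027) and -0.72 ± 0.2 in SGCF (adjusted p = 0.0236). The 6TCF call was lost without normalization between arrays (-0.59, adjusted p = 0.0518) and without day 5 replicate 1 (-0.41), day 10 replicate 1 (-0.84) or day 10 replicate 2 (-0.69). The SGCF call was lost without day 5 replicate 2 (-0.58), day 10 replicate 1 (-0.71) or day 10 replicate 2 (-0.74), and the second probe set was not called in either arm. From day 0 to day 10 Bdnf fell by 2.03 in 6TCF (adjusted p = 8.67e-06), and in SGCF the difference of 0.24 was not called (adjusted p = 0.379).

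A day 5 peak was counted where a gene was called higher at day 5 than day 0 and called lower at day 10 than day 5. The steps share the day 5 arrays, so a bright day 5 array enters both. Since the members were chosen with earlier results of these data known, their counts describe the set and do not test it. In 6TCF 5 genes met this, Nefl, Nefm, Gap43, Syn1 and Lrrn1, where 1.75% of all genes did. Of these, Syn1 had passed the filter only through its day 5 group. The count was 3 without 6TCF day 5 replicate 1 or day 10 replicate 1. In SGCF 7 genes met it, Nefl, Nefm, Gap43, Nptx1, Chrna1, Lrrn1 and Bdnf, where 2.72% of all genes did, and leaving out any 1 array gave 6 to 8. The peak was called in both arms for Nefl, Nefm, Gap43 and Lrrn1, 4 of the 10, as it was for 0.571% of all genes.

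The fall from day 5 to day 10 was called for 7 genes and a rise for 0 in each arm, where 15.8% of all genes were called in 6TCF (7.12% lower and 8.69% higher) and 21.7% in SGCF (9.97% lower and 11.7% higher). At an unadjusted p under 0.05 in limma 8 genes were lower and 0 higher in each arm, where 15% of all genes were lower and 17.3% higher in 6TCF, and 16.7% and 18% in SGCF. In 6TCF the 7 were Nefl, Nefm, Gap43, Map1b, Syn1, Lrrn1 and Bdnf, and 4 remained without day 5 replicate 1 or without day 10 replicate 1. Syn1 had passed the filter only through 6TCF day 5, so its fall in that arm is tied to the filter. The median change of the members was -0.97 in 6TCF and -1.64 in SGCF, against -0.003 and -0.004 over all genes. Several genes were still above their day 0 level. At day 10 against day 0, 6 genes were called higher and 2 lower in 6TCF, where 43.2% of all genes were called (23.2% higher and 20% lower). In SGCF 6 were higher and 1 lower, where 38.8% of all genes were called (20.5% higher and 18.3% lower). Nefl, Nefm, Gap43, Nptx1 and Lrrn1 were higher in both arms at day 10, as were 11.5% of all genes. These comparisons share the day 0 arrays with the day 5 ones.

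**Figure D2:**
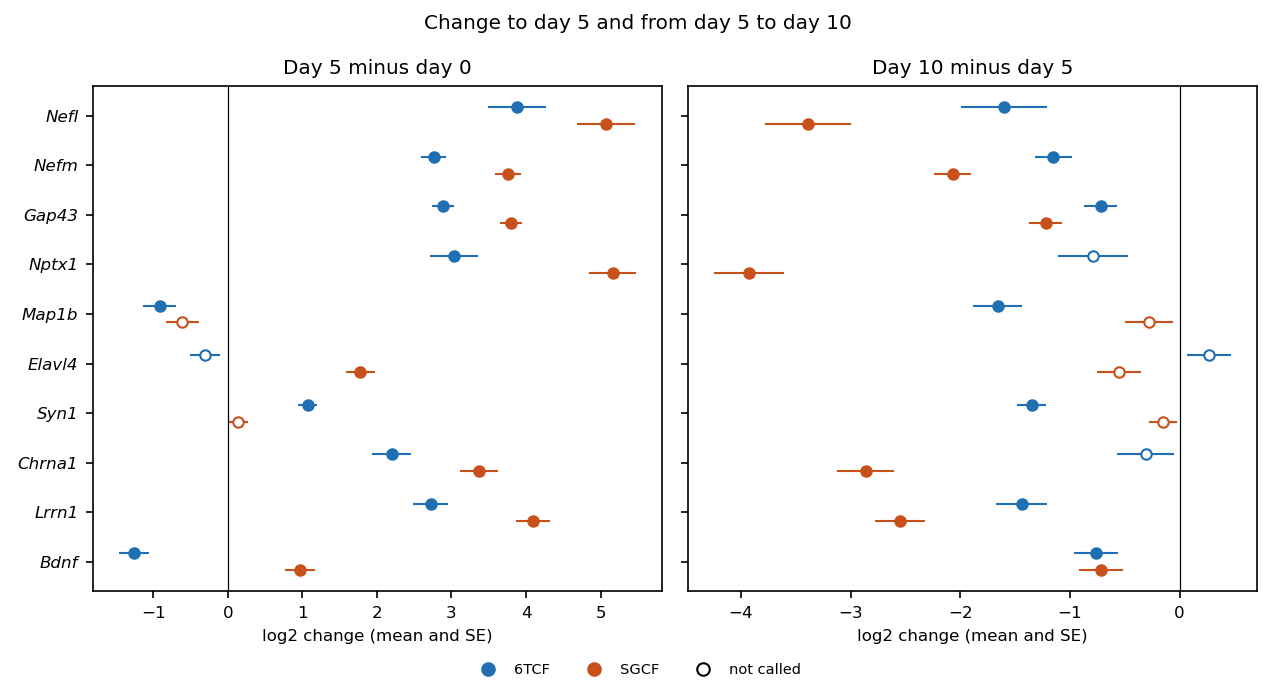
Log2 change of each gene (horizontal axis) from day 0 to day 5 on the left and from day 5 to day 10 on the right; points are the differences between group means of 2 arrays, bars are standard errors, and open points were not called. In the right panel the SGCF points of Nefl, Nptx1, Chrna1 and Lrrn1 lie farthest left, from -2.55 to -3.93.

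The share of the day 5 rise left at day 10, on the log2 scale, differed between genes. In 6TCF it was 85.7% for Chrna1, 75.1% for Gap43, 74% for Nptx1, 58.9% for Nefl, 58.2% for Nefm and 47% for Lrrn1. Syn1 ended below its day 0 mean by an amount that was not called (-0.27, adjusted p = 0.119). In SGCF it was 69.3% for Elavl4, 67.9% for Gap43, 45.1% for Nefm, 37.5% for Lrrn1, 33.1% for Nefl, 25.1% for Bdnf, 23.7% for Nptx1 and 15% for Chrna1. These shares are descriptions of 2 arrays a group and carry no test of their order. The day 10 levels of Chrna1 and Bdnf in SGCF were not called above day 0, and with 1 array left out the level above day 0 ran from 0.24 to 0.77 for Chrna1, from 0.11 to 0.37 for Bdnf and from 0.58 to 1.86 for Nptx1.

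The replicates of day 10 differed for several genes. In 6TCF replicate 2 of day 10 was the brighter for 7 of the 10 genes, among them Nefl at 305 against 107, and in SGCF replicate 1 was the brighter for 7, among them Nptx1 at 133 against 45.7. At day 5 in 6TCF replicate 1 was the brighter for all 10 genes, including Map1b by 453 against 442.

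The arms differed in how the genes changed. The signed change from day 0 to day 5 was more positive in SGCF than in 6TCF for 6 of 10 genes (Nefm, Gap43, Nptx1, Elavl4, Lrrn1 and Bdnf, the last of which fell in 6TCF and rose in SGCF) and less positive for 1 (Syn1), where 8.98% of all genes were called in the same test of the difference (2.91% higher and 6.06% lower). The count of 6 was 3 without 6TCF day 0 replicate 1 and 2 without 6TCF day 5 replicate 2. The sizes ran from 0.91 ± 0.21 for Gap43 to 2.23 ± 0.29 for Bdnf. For Nefl the difference of 1.18 ± 0.56 (adjusted p = 0.23), and for Chrna1 that of 1.17 ± 0.37 (adjusted p = 0.0732), were not called. From day 5 to day 10, 4 genes changed more negatively in SGCF (Nefm, Nptx1, Chrna1 and Lrrn1) and 2 more positively (Map1b and Syn1), where 12.2% of all genes were called (5.71% lower and 6.54% higher). Nefl differed by -1.79 ± 0.56 over the same step, which was not called (adjusted p = 0.0561), but was called under 4 of 10 alternatives to the processing and without replicate 1 of day 10 in either arm (-2.48 without that of 6TCF and -2.28 without that of SGCF). The count of 4 was 2 without 6TCF day 5 or day 10 replicate 2, either SGCF array of day 5 or SGCF day 10 replicate 2. The count of 2 was 1 without replicate 1 of 6TCF day 5, 6TCF day 10 or SGCF day 5, or without SGCF day 10 replicate 2. Syn1 had passed the filter only through 6TCF day 5, a group that enters its differences in both steps. Over the whole 10 days the difference was called positive for Map1b, Elavl4 and Bdnf and negative for Chrna1, where 25.7% of all genes were called (12.3% positive and 13.4% negative).

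Starting levels also differed. At day 0 SGCF was called lower than 6TCF for Map1b (-1.28, adjusted p = 0.00397), Elavl4 (-0.9, adjusted p = 0.0133) and Bdnf (-1.48, adjusted p = 0.000943), 3 of the 10 genes, where 17.4% of all genes were called (8.81% lower and 8.59% higher). At an unadjusted p under 0.05 in limma 6 genes were lower and 0 higher, where 15.7% and 17.1% of all genes were. The Elavl4 call was lost without either 6TCF array of day 0 (-0.95 and -0.86), and with the mean of all probe sets the differences were -0.47 for Elavl4 and -0.48 for Map1b, neither called. Without normalization between arrays, which leaves the dimmer SGCF arrays as they are, 8 genes were called lower, Gap43 among them (-0.63). The levels of the other 7 genes at day 0 were not called different. A difference between the arms in change, for these 3 genes, thus includes a difference in where they began.

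**Figure D3:**
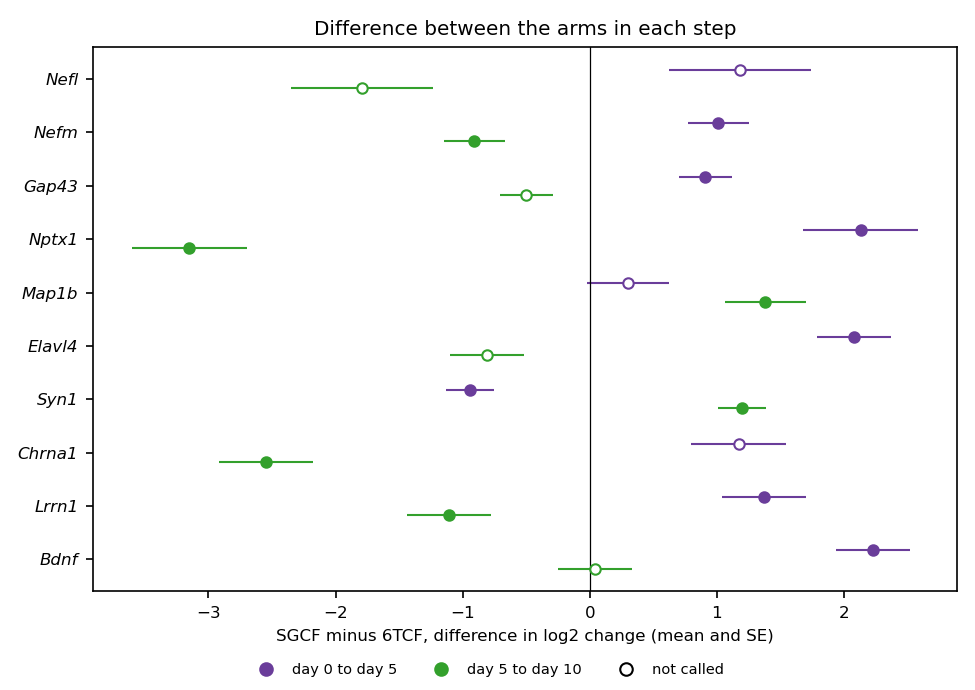
Difference between the arms in log2 change, SGCF minus 6TCF (horizontal axis), for the step to day 5 and the step from day 5 to day 10; points are limma estimates, bars are standard errors, and open points were not called. Most points of the first step lie right of 0 and Nptx1 and Chrna1 lie farthest left in the second, at -3.15 and -2.55.

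The wider families of these genes moved less uniformly. Lists of 205 related genes, without the members, gave 151 on the array and 128 tested. In 6TCF 31 of the 128 were called higher at day 5 (24.2%) and 16 lower (12.5%), and in SGCF 24 higher (18.8%) and 19 lower (14.8%). The median change was 0.08 and 0.11. A day 5 peak was called for 7 of the 128 in 6TCF (5.47%) and 6 in SGCF (4.69%). The 7, like the 31 called higher, include Shank3, which passed the filter only through 6TCF day 5. These shares, and the counts of each list below, can be read beside those of all genes. At day 5, 15.1% of all genes were called higher and 12.6% lower in 6TCF, and 12.8% and 12.7% in SGCF. A peak was called for 1.75% and 2.72%.

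Cytoskeleton and axon growth genes mostly did not rise with the neurofilaments. Of 29 tested, 5 were higher and 7 lower at day 5 in 6TCF (median -0.03), and 3 higher and 12 lower in SGCF (median -0.25). Map6, which stabilises microtubules, fell by 2.16 ± 0.14 in 6TCF (adjusted p = 3.45e-07). Tubb3, the tubulin widely used to mark neurons, fell by 1.64 ± 0.24 in SGCF (adjusted p = 0.000352), from 174 and 189 to 35.8 and 61.6, and Ncam1, a neural adhesion molecule, fell by 1.08 ± 0.27 (adjusted p = 0.0108). Ank3, the ankyrin of the axon initial segment, rose by 2.05 ± 0.17 in 6TCF (adjusted p = 2.39e-06) and by 2.17 ± 0.17 in SGCF (adjusted p = 1.45e-06). It fell back in 6TCF, from 1580 and 1710 to 841 and 886, and was a peak there, while SGCF read 2380 and 2200 at day 10. Prph, the intermediate filament peripherin of peripheral neurons, rose by 1.41 ± 0.21 in 6TCF (adjusted p = 0.000306) and reached 256 and 349 at day 10, from 17.2 and 18.3 at day 0. In SGCF all 6 Prph arrays lay between 8.14 and 15.7, below the dim reference.

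Presynaptic genes were more often called higher than lower. Of 23 tested, 6 were higher and 0 lower at day 5 in 6TCF (median 0.14; 1 lower at an unadjusted p under 0.05 in limma), and 5 higher and 2 lower in SGCF (median 0.07). Snap25, a SNARE of vesicle fusion, rose by 1.85 ± 0.25 in 6TCF (adjusted p = 0.000172), from 6.62 and 8.09 to 58 and 79.4, and read 78.3 and 161 at day 10. In SGCF it rose by 2.73 ± 0.25 (adjusted p = 7.51e-06), from 6.84 and 6.77 to 158 and 115, and fell to 72.5 and 52.3, a peak. Slc17a6, a vesicular glutamate transporter, rose by 0.76 ± 0.14 (adjusted p = 0.00136) and 1.61 ± 0.14 (adjusted p = 3.64e-06) and was a peak in SGCF. Synpr, synaptoporin of the vesicle membrane, rose by 1.25 ± 0.25 (adjusted p = 0.00229) and 1.53 ± 0.25 (adjusted p = 0.000594). Rab3c, a vesicle GTPase, was a peak in 6TCF.

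Pentraxin and postsynaptic glutamate receptor genes gave 7 higher and 0 lower of 18 at day 5 in 6TCF, and 4 higher and 0 lower in SGCF, with a median of 0.18 in each. At an unadjusted p under 0.05 in limma, 0 were lower in 6TCF and 1 in SGCF. Gria1, an AMPA receptor subunit, rose most. It went from 8.9 and 9 at day 0 to 444 and 613 at day 5 and 693 and 775 at day 10 in 6TCF, and from 17.2 and 16.3 to 96.6 and 102 and then 378 and 441 in SGCF. The rises to day 5 were 4.43 ± 0.15 (adjusted p = 3.9e-09) and 1.82 ± 0.15 (adjusted p = 2.8e-06), and unlike Nptx1 the Gria1 arrays were highest at day 10 in both arms. Nptx2, a second neuronal pentraxin, was a peak in 6TCF. Shank3, a postsynaptic scaffold, met the same rule and is among the 7 called higher at day 5. It passed the filter only through 6TCF day 5, where it read 29.3 and 26.7, and its other 10 arrays lay below the dim reference. Dlg2, another scaffold, was higher by 0.74 ± 0.2 (adjusted p = 0.0139) and 0.84 ± 0.2 (adjusted p = 0.00743), Grik2, a kainate receptor subunit, by 0.74 ± 0.12 in 6TCF (adjusted p = 0.000724), and Nlgn2, a postsynaptic adhesion molecule, by 0.49 ± 0.13 in SGCF (adjusted p = 0.018).

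Of 15 acetylcholine receptor and neuromuscular junction genes, 2 were higher and 2 lower at day 5 in 6TCF and 2 higher and 1 lower in SGCF. Beside Chrnb1 and Chrnd, Lrp4, the muscle receptor for agrin, was higher by 0.67 ± 0.14 (adjusted p = 0.00359) and 0.85 ± 0.14 (adjusted p = 0.000728), and Chrnb3, a neuronal receptor subunit, fell by 0.54 in 6TCF (adjusted p = 0.0242). Of 11 ELAV family and splicing genes, 2 were higher and 2 lower in 6TCF and 1 higher and 2 lower in SGCF. Khdrbs2, a splicing regulator of the brain, rose by 1.38 ± 0.14 in each arm (adjusted p = 1.13e-05 and 1.18e-05) and was a peak in both, falling to 56.1 and 58 in 6TCF and to 51.4 and 39.9 in SGCF from 98.1 and 82.5 and from 153 and 137. Nova1, a neuronal splicing factor, rose by 0.69 in 6TCF, Khdrbs3 fell by 0.67 in SGCF, and Rbfox2 fell by 0.63 and 0.41.

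Neurotrophin and receptor genes gave 4 higher and 0 lower of 9 in 6TCF and 3 higher and 0 lower in SGCF, with the same counts at an unadjusted p under 0.05 in limma. Ntrk2, the Bdnf receptor, rose by 1.52 ± 0.18 in 6TCF (adjusted p = 4.54e-05) and 1.05 ± 0.18 in SGCF (adjusted p = 0.00085). Its SGCF arrays read 159 and 154 at day 5 and 749 and 583 at day 10. Sorcs1, a sorting receptor, rose by 1.44 in 6TCF, Ngfr, the low-affinity neurotrophin receptor, by 0.78 in SGCF, and Gdnf, a trophic factor, by 0.97 in 6TCF, where it was a peak, and 0.61 in SGCF. Of the 5 leucine-rich repeat adhesion genes tested, Lrrtm1 (1.03) and Lrrc4 (0.7) rose and Rtn4r fell (-0.69) in 6TCF, and Lrfn1 (0.48) rose in SGCF.

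Of 18 neuronal transcription factor genes, 3 were higher and 4 lower at day 5 in 6TCF and 5 higher and 2 lower in SGCF. Isl1, a factor of motor and sensory neurons, rose by 1.79 ± 0.17 (adjusted p = 7.67e-06) and 1.38 ± 0.17 (adjusted p = 6.87e-05). Gata3 fell by 1.87 ± 0.17 in 6TCF (adjusted p = 7e-06) and Dlx5 by 0.92 ± 0.14 in SGCF (adjusted p = 0.000329). Eomes rose by 1.02 in 6TCF and was a peak there, and Zic1, which rose by 0.91, and Hand2 were peaks in SGCF.

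**Figure D4:**
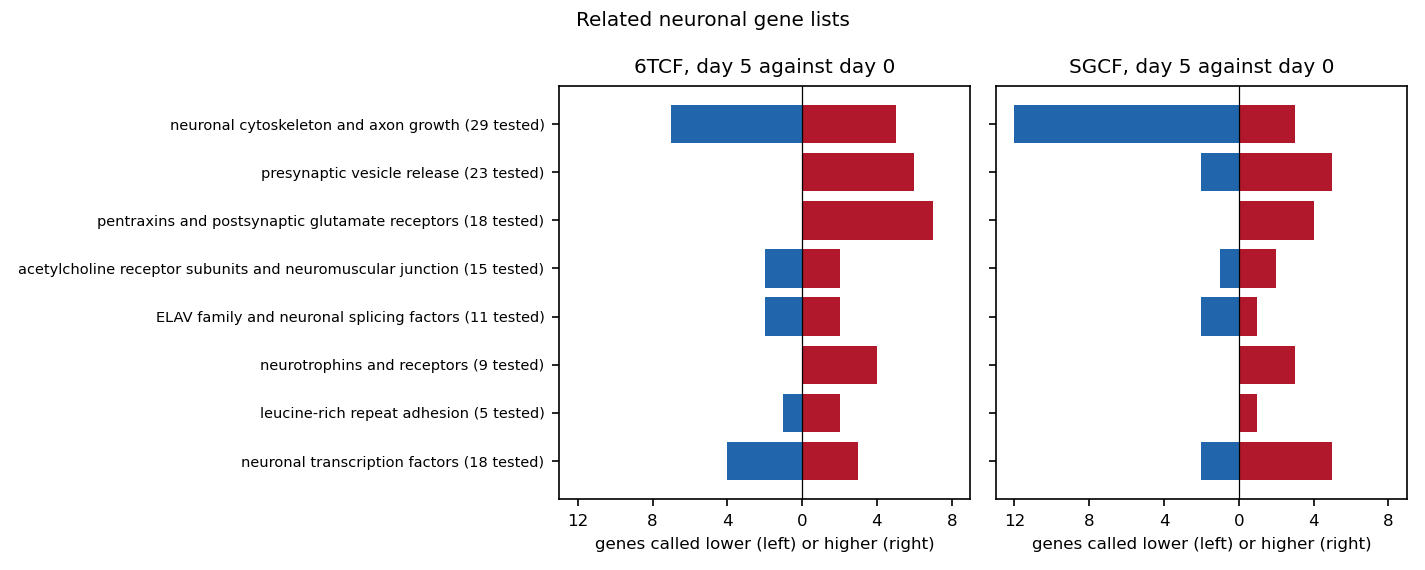
Number of genes of each related list called lower (bars to the left) or higher (bars to the right) at day 5 than day 0, in 6TCF and in SGCF, with the number tested beside each name. The cytoskeleton and axon growth list has 7 lower and 5 higher genes in 6TCF and 12 lower and 3 higher in SGCF, and the postsynaptic list has 0 lower in both.

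The 10 neurone markers were set beside the members to check what the cultures held. Their summed intensity was 890.5 to 988.5 at day 0, 1028 to 1090 at day 5 and 709.7 to 849.8 at day 10 in 6TCF, and 554.1 to 643.1, 833 to 934.8 and 746.2 to 748.1 in SGCF. Stmn2 was the largest part of each sum, at 635 and 697 at day 0 in 6TCF. The rise of the sum to day 5 in SGCF was mostly the rise of Stmn2. Rbfox3, Syt1, Dcx and Map2, which define differentiating and mature neurons, were below the dim reference in all 6 groups. The other markers did not move as one. Of the 6 tested, 1 was called higher and 0 lower at day 5 in 6TCF (median change 0.17), and 2 higher and 1 lower in SGCF (median 0.43). Snap25 rose in both arms, as given above. Stmn2, a tubulin-binding protein of growing neurites, rose by 0.92 ± 0.13 in SGCF (adjusted p = 0.000223), from 258 and 314 to 599 and 510, and Tubb3 was the one that fell. The part of neuronal cells in the values of the members was not tested. The 12 fibroblast markers summed to between 42520 and 72220 on every array and none was below the dim reference. The 10 macrophage markers summed to 3019 to 3165 at day 0, 894.5 to 1017 at day 5 and 1575 to 1691 at day 10 in 6TCF. In SGCF the sums were 6413 to 7328, 627 to 816.5 and 636.6 to 747.9, so that the sums were lower at day 5 and day 10 than at day 0 in both arms. Of the 10, 8 were called lower and 1 higher at day 5 in 6TCF, and 9 lower and 1 higher in SGCF. The counts at day 10 against day 0 were the same. Cd14 went up, from 88.4 and 78.6 at day 0 to 157 and 148 at day 5 in 6TCF, and from 130 and 134 to 238 and 179 in SGCF. The part of these markers in the changes of the members was not tested.

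Across the 12 arrays the 6 genes that rose in both arms had like profiles, as Pearson's r of 0.987 between Nefl and Lrrn1, 0.971 between Nefl and Nefm and 0.976 between Nptx1 and Chrna1 describes. The lowest values among these 6 were 0.843 between Gap43 and Nptx1 and 0.859 between Gap43 and Chrna1. Bdnf and Nefl gave r = -0.0139, and Map1b and Bdnf, which both declined in 6TCF, gave 0.666. The arrays share their groups, so r mostly restates the group means. Among 2777 genes whose group means spanned at least 1 on the log2 scale, those most like Nefl were Sprr1a (0.984) and Tpbg (0.982). Sprr1a was also the closest to Nptx1 (0.993) and among the closest to Chrna1 (0.975, after Sema7a at 0.976). Lrrn1 was most like Dusp6 (0.984) and Tpbg (0.974), Nefm most like Aqp3 (0.98) and Pcbp3 (0.979), and Gap43 most like Cyp27a1 (0.982) and Sox7 (0.981). Map1b was closest to Ints6 (0.996) and Inhba (0.99), and Bdnf to Akt1 (0.942) and Ptgs2 (0.94). The likeness was lower for Elavl4, at 0.911 with Mapk13 and 0.881 with Ereg, and for Syn1, at 0.879 with Nav2 and 0.857 with Eomes. Nptx1's second was Kcnh2 (0.974).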

How the data were processed

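RNA from 12 samples was measured on Affymetrix 430A 2.0 arrays of the mouse genome. The authors deposited a table of linear intensity values per probe set; the submitters' processing notes name MAS5, RMA and limma without roles or versions, so which of them made the values is not stated there. Column distributions differed, so values were not quantile-normalised when deposited. The log2 of intensity plus 16 was quantile-normalised between arrays; printed normalised intensities are back-transformed. Of 22690 probe sets, 64 were controls, 20380 had 1 gene symbol, 691 several and 1555 none. The probe set with the highest mean stood for a gene, and genes whose highest group mean exceeded the 25th percentile (log2 value 5.25) were tested, 10674 of 12393. limma 3.58.1 in R 4.3.3 fitted 6 group means to 12 arrays (6 residual and 5.75 prior degrees of freedom), with moderated tests, Benjamini-Hochberg adjustment over all genes tested and a call at adjusted p under 0.05. The script was tested on simulated data. With 2 arrays a group, an exact permutation test of 1 gene cannot go below p = 0.333 (two-sided); the number of arrays limits the precision.

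The members and lists were chosen with earlier results of these data known. Named were all members; per related list, up to 3 genes with the largest change among those called at day 5 in either arm, and any day 5 peak; and the 2 genes most correlated with each member. Alternatives covered the offset, normalization, filter, probe set rule, samples fitted, variance prior, replicate block and each array left out. Sequences came from RefSeq.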

Additional observations from a re-analysis of the deposited data

Results flagged for a closer look

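The change of a gene over the same days was set against itself in the other arm, as the SGCF change minus the 6TCF change on the log2 scale (± SE, limma, adjusted over all genes). Arm and array processing cannot be told apart in these differences.

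For the change from day 0 to day 5, Bdnf differed by 2.23 ± 0.29 (adjusted p = 0.000486), Nptx1 by 2.13 ± 0.45 (0.0112), Elavl4 by 2.08 ± 0.29 (0.000817), Lrrn1 by 1.37 ± 0.33 (0.0216), Nefm by 1.01 ± 0.24 (0.0198) and Gap43 by 0.91 ± 0.21 (0.0177). Syn1 differed the other way, by -0.94 ± 0.19 (0.00745). Bdnf fell in 6TCF and rose in SGCF on both arrays of each group. The calls of Bdnf, Elavl4 and Syn1 held without any 1 array. Syn1 passed the filter only through 6TCF day 5, and with no filter its difference was -0.94 (adjusted p = 0.00786). That of Nptx1 was lost without 6TCF day 5 replicate 2 (1.82, adjusted p = 0.0568). Those of Nefm, Gap43 and Lrrn1 were each lost without 3 or 4 of the arrays, 6TCF day 0 replicate 1 and 6TCF day 5 replicate 2 among them (0.93 and 0.84 for Nefm, 0.83 and 0.77 for Gap43, 1.19 and 1.23 for Lrrn1). The others were SGCF day 5 replicate 2 for Nefm (0.93) and Lrrn1 (1.26), 6TCF day 0 replicate 2 for Nefm (1.08), SGCF day 5 replicate 1 for Gap43 (0.87) and SGCF day 0 replicate 1 for Lrrn1 (1.3). The Nefm difference was 0.71 with arrays scaled to a common median and 0.57 without normalization, and the Lrrn1 difference 1.03 without normalization, none of them called.

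For the change from day 5 to day 10, Nptx1 differed by -3.15 ± 0.45 (0.00158), Chrna1 by -2.55 ± 0.37 (0.00156), Lrrn1 by -1.11 ± 0.33 (0.0474) and Nefm by -0.91 ± 0.24 (0.03), that is, each fell further in SGCF. Map1b differed by 1.38 ± 0.32 (0.0182) and Syn1 by 1.2 ± 0.19 (0.00256), each falling further in 6TCF. Syn1 passed the filter only through 6TCF day 5, and with no filter its difference was 1.2 (adjusted p = 0.00301). Leaving out an array did not redo the filter. The Nptx1, Chrna1 and Syn1 calls held without any 1 array. With 1 array left out, Lrrn1 ran from -1.43 to -0.8 and lost its call without any 1 of 8 arrays (both 6TCF arrays of day 0, both arrays of day 5 in each arm, and replicate 2 of day 10 in each arm). Nefm ran from -1.08 to -0.75 and lost its call without any 1 of 7 (6TCF day 5 replicate 2, both SGCF arrays of day 5, and all 4 arrays of day 10). The Nefm call was also lost with an offset of 1 (-0.98), and that of Lrrn1 with the same offset (-1.17), without the filter on dim genes (-1.11) and with every probe set tested (-1.11). Map1b lost it without 6TCF day 5 replicate 1 (1.37), 6TCF day 10 replicate 1 (1.17), SGCF day 5 replicate 1 (1.27) or SGCF day 10 replicate 2 (1.3), and its 3 probe sets averaged gave 0.53 (adjusted p = 0.274).

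Over the whole course, from day 0 to day 10, Bdnf differed by 2.27 ± 0.29 (0.000264), Map1b by 1.68 ± 0.32 (0.00334), Elavl4 by 1.27 ± 0.29 (0.00903) and Chrna1 by -1.38 ± 0.37 (0.0181). The first 3 were also called different between the arms at day 0, though Map1b and Elavl4 not with the mean of all probe sets. Chrna1 lost its call without 6TCF day 0 replicate 2 (-1.26), 6TCF day 10 replicate 2 (-1.17), SGCF day 0 replicate 2 (-1.33) or SGCF day 10 replicate 2 (-1.11). The average of the 3 Map1b probe sets gave 0.72 (adjusted p = 0.111). Both dimmer Elavl4 probe sets, 0.86 (adjusted p = 0.0567) and 0.37 (adjusted p = 0.408), were not called.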

How the results depend on the processing

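Of the 66 called changes and differences of the members, re-examined in 702 values under 11 alternatives to the processing, 686 stayed called in the same direction, 16 lost the call and 0 turned. Of 792 values with 1 array left out, 738 stayed, 54 lost the call and 0 turned. Many of these removals were of an array outside the contrast, which leaves its estimate unchanged. Normalization and the filter on dim genes were not redone when an array was left out, so these tallies overstate stability. Sizes moved more than calls: offsets of 64 and 1 gave the lowest and highest SGCF rise of Nefl, 3.73 and 6.11. The counts of 7 (6TCF) and 8 (SGCF) members higher at day 5 were the same without any 1 array. Of the uncalled values, 24 under the alternatives (12 different ones) and 13 with 1 array left out gained a call in the same direction, and 1 became a call of the opposite sign: Gap43 in SGCF against 6TCF at day 0 was -0.63 without normalization between arrays, and 0.14, not called, with it.

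Some counts moved by over 1.5 times. The SGCF count of members lower at day 5 (0) was 1 with offset 64, without normalization and with the limma trend. The count lower at day 0 in SGCF than 6TCF (3) was 8 without normalization and 1 with the mean of all probe sets. For the arm difference, the count lower to day 5 (1) was 0 with the filter at the 50th percentile, which left Syn1 out. Its count higher from day 5 to day 10 (2) was 1 with that filter and with the mean of probe sets, and the count lower (4) was 2 with offset 1. The count lower from day 0 to day 10 (1) was 2 with offset 64 and with arrays scaled to a common median, and 3 without normalization. The causes were not tested, apart from the filter's.

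With 1 array left out, the 6TCF counts ran from 4 to 8 for members lower from day 5 to day 10, from 1 to 2 for lower at day 5 and from 3 to 6 for the day 5 peak. The SGCF counts ran from 0 to 1 for lower at day 5 and at day 10 against day 0, from 4 to 6 for higher at day 10 and from 6 to 8 for the peak. Arm difference counts ran from 2 to 7 (higher to day 5), 1 to 2 and 2 to 5 (higher and lower, day 5 to day 10) and 0 to 2 (lower to day 10).

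The labels' replicate numbers did not pair the arrays: same-numbered deviations correlated at -0.0314 to -0.0224 between days in 6TCF and -0.277 to 0.11 in SGCF. With the replicate number as a block within each arm, 99 of 100 member values stayed on their side of the threshold, and the arm difference of Lrrn1 from day 5 to day 10 lost its call (-1.11, adjusted p = 0.0758).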

Other observations

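Markers of cell types outside the set were measured on the same arrays. Of 10 Schwann cell and glia markers, 7 were on the array. S100b, a calcium-binding protein of glia and other cells, rose at day 5 by 1.64 ± 0.15 in 6TCF (adjusted p = 6.14e-06) and by 1.29 ± 0.15 in SGCF (adjusted p = 4.82e-05), and at day 10 stood 2.15 and 1.24 above day 0. Mbp, the myelin basic protein gene, was higher at day 10 by 1.5 ± 0.11 in 6TCF (adjusted p = 6.95e-07) and lower in SGCF (-0.48 ± 0.11, adjusted p = 0.00484). At day 10 against day 0, 2 of the 7 were called higher, 1 lower (Foxd3, a neural crest factor, -0.57 ± 0.15, adjusted p = 0.00935) and 4 not called in 6TCF, with a median change of 0.13. In SGCF 1 was higher and 1 lower, with a median of 0.

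Of 9 endocrine and chromaffin cell markers 7 were on the array. Scg2, a granin of secretory granules, rose by 1.52 ± 0.21 at day 5 in 6TCF (adjusted p = 0.000194) and was 0.75 ± 0.21 above day 0 at day 10 in SGCF (adjusted p = 0.0149). Chga and Chgb, the granins that define the type, were below the dim reference in SGCF at every day, and in 6TCF they passed the filter only through day 10, where Chga read 23.2 and 32 and Chgb 17.9 and 41.3, so no test of them is given.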
